A study of Mus musculus with 24 samples.

Results

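The genes described here serve the integrated stress response, the supply of amino acids and the unfolded protein response of the endoplasmic reticulum (ER). They were taken by name, as a list of 38 genes, and each was read from the probe set that the platform annotation gives to that gene alone, with the highest mean over all 24 arrays where there were several. A single-gene probe set was found for 37 of the 38, against 18193 genes in the whole data set. A log2 value of 5 on at least 3 arrays was reached by 35, against 9504 genes in all. By role the list held 14 genes of the ATF4 arm, 4 kinases and sensors, 10 enzymes of serine, one-carbon and proline metabolism, 5 amino acid transporters and 5 ER genes.

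Total RNA came from undifferentiated embryonic stem (ES) cells of the 129/Sv mouse strain, cultured cells of the early embryo, and each sample was hybridised to its own Affymetrix mouse expression array. The genotypes concern Hdh (now Htt), which encodes huntingtin and whose CAG tract is lengthened in Huntington's disease. The 6 control arrays carried 7 repeats on both alleles, and the 6 knock-out arrays had a null genotype. The knock-in lines, with 3 arrays each, kept 1 allele of 7 repeats beside a longer one of 16 repeats in Q20, 45 in Q50 (43 in its replicate 3), 85 in Q91 and 111 in Q111. All titles say biological replicate, but the sources used here do not say whether replicates were clones or parallel cultures, so p-values measure the spread between these arrays only. Each knock-in genotype is represented by a single line.

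The integrated stress response begins with kinases that phosphorylate the translation factor eIF2, among them GCN2 (Eif2ak4), which senses uncharged tRNA, and PERK (Eif2ak3), which senses unfolded protein in the ER. Phosphorylated eIF2 lowers general translation and favours translation of ATF4, a transcription factor that raises genes of amino acid synthesis and uptake. Separate branches, through IRE1 (Ern1) and XBP1 and through ATF6, raise chaperones of the ER. ES cells draw heavily on serine and one-carbon metabolism for nucleotide synthesis and methylation.

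Promoter windows, from 250 bases before to 50 bases after the RefSeq start site (GRCm38.p6), were searched on both strands for the core of the amino acid response element, TGATGNAA, the site through which ATF4 and C/EBP proteins act. The motif was present in 3.97% of all 32851 windows of 300 bases, and in a window of 10 of the 34 listed genes that had one: Atf3, Chac1, Trib3, Nupr1, Asns, Vldlr, Pycr1, Pck2, Slc7a11 and Herpud1. The windows of Atf4, Atf5, Psat1, Phgdh, Psph, Shmt2, Mthfd2, Mthfd1l, Aldh18a1, Slc3a2 and Slc7a1 held no match, although these genes also fell in some groups below. Atf3, which has a match, did not fall in any group. The following 6 windows were chosen from genes that have a match and fell in some groups. Each is printed 5′ to 3′ on the strand of the gene, with the matches in capitals.

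Chac1 promoter (chr2:119350992-119351291, plus strand): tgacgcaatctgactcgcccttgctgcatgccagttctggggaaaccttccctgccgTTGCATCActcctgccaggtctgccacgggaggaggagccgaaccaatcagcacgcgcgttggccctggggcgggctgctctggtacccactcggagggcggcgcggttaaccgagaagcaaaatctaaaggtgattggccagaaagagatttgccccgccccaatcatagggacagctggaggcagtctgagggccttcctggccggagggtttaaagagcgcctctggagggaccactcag
Nupr1 promoter (chr7:126625421-126625720, minus strand): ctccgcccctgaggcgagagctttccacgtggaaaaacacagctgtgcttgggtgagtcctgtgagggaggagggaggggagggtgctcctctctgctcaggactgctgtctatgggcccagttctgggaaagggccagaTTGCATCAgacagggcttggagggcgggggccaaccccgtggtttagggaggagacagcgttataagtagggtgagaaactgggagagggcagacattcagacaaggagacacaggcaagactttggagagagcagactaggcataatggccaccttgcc
Trib3 promoter (chr2:152344011-152344310, minus strand): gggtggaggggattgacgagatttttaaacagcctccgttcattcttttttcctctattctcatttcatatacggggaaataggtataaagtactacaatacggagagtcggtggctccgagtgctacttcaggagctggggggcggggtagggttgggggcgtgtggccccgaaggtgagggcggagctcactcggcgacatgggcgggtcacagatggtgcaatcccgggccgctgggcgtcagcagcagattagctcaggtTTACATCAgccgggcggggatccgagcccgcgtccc
Asns promoter (chr6:7693160-7693459, minus strand): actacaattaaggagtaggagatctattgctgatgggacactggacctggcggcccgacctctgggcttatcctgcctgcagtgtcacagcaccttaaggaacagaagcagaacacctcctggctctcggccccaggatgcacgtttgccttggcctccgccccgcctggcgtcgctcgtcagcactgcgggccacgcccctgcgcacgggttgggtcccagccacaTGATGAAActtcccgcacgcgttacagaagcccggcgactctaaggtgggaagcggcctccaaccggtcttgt
Pck2 promoter (chr14:55540016-55540315, plus strand): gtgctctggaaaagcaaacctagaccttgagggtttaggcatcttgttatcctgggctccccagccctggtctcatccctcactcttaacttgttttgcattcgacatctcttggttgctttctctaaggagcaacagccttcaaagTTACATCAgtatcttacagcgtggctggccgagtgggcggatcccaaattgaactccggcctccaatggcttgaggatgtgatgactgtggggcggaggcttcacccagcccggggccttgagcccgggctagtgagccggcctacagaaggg
Herpud1 promoter (chr8:94386179-94386478, plus strand): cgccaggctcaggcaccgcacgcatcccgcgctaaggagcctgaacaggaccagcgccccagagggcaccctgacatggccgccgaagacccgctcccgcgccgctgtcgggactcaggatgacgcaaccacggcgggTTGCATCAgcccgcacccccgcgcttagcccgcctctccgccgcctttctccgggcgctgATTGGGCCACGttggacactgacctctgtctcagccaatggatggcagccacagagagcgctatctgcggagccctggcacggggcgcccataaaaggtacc

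The Chac1, Nupr1 and Herpud1 windows hold the motif as TTGCATCA on the opposite strand, beginning 193, 110 and 112 bases before the start site. Trib3 and Pck2 hold TTACATCA, which lies after the start site in Trib3 and 103 bases before it in Pck2. Asns holds TGATGAAA on the strand of the gene, 23 bases before the start. Herpud1 also holds, in its second run of capitals, the element ATTGGGCCACG that is bound by ATF6 and XBP1, and these letters, with any base in the middle, were found in 0.0365% of all windows. The classical ER stress response element (CCAAT and CCACG separated by 9 bases) was found in 0.119% of all windows, and among the listed genes in Calr. A match describes the letters in a window and does not show that a protein binds there.

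On each array 36.8% to 38% of probe sets were at 5 or above in log2, and no pair among the 276 pairs of arrays held identical values. Replicate 3 of Q50 stood apart in the difference between 3′ and 5′ probe sets of Actb, a measure of RNA integrity, at 1.54 in log2 against 0.75 to 1.03 on the others. The Htt probe set read 7.45 to 8.25 in the control, 6.67 to 7.39 in the knock-out, and 7.25 to 7.69 (Q20), 7.34 to 7.44 (Q50), 6.67 to 7.39 (Q91) and 6.84 to 7.42 (Q111) in the lines. The change was -0.80 in the knock-out (limma adjusted p = 0.00195), and Q91 and Q111 were lower too (-1.05 and -0.79), so the level does not tell these genotypes apart. Whether the probe set lies in the deleted part is not known here. A description field of the labels names the control arrays as lacking Hdh and the knock-out arrays as controls. Titles and genotypes name them the other way, and groups follow these. All 9 ES cell markers had a mean of at least 5 in every group, which does not show that they were unchanged. Klf4 had a mean of 12.75 in the control, 13.34 in the knock-out, 11.52 in Q20, 11.66 in Q50, 11.38 in Q91 and 11.51 in Q111. Esrrb had means of 12.21, 12.25, 10.84, 11.71, 10.80 and 10.97 in the same order. Those of Pou5f1 lay between 14.47 and 14.74. Of the feeder fibroblast markers, Dcn, Lum and Fap lay between 2.06 and 2.49 on every array, while the collagen gene Col1a1 had a mean of 3.73 in the control, 3.56 in the knock-out, 7.98 in Q20, 4.02 in Q50, 7.48 in Q91 and 8.40 in Q111, and Col1a2 went from 2.68 in the control to 5.08 in Q111. Thy1, of the same list, was lower outside the control, with means of 5.97 in the control and 3.30 in the knock-out. Its means were 4.66 in Q20, 4.29 in Q50, 5.09 in Q91 and 5.34 in Q111. Group means were 3.11 to 3.90 for Col3a1 and 3.55 to 3.79 for Pdgfra. The part of these markers in the results was not tested.

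Most changes in this list were decreases, and they were found in the knock-out and in every knock-in line. In the knock-out 10 of the 35 genes tested fell and 1 rose, where 7.17% of the 17980 probe sets tested fell and 7.42% rose. In Q20 11 fell and 2 rose (background 9% and 16.2%), in Q50 10 fell and none rose (2.3% and 5.7%), in Q91 19 fell and 1 rose (9.49% and 12.7%), and in Q111 11 fell and 3 rose (9.49% and 16.2%). Over the 9504 genes, read like the list from 1 probe set each, 8.81% fell and 7.55% rose in the knock-out. In Q20 these shares were 10.4% and 16.3%, and in Q50 2.42% and 5.08%. They were 11.3% and 13.3% in Q91, and 11.1% and 16.4% in Q111. Shares given below are of probe sets. The median change over the 35 genes was -0.25 in the knock-out, -0.16 in Q20, -0.27 in Q50, -0.55 in Q91 and -0.24 in Q111, against -0.02, 0.01, 0.03, -0.01 and -0.01 over all 9504 genes. All of these comparisons share the 6 control arrays, so a chance deviation of the controls enters each of them. Of the 35 genes, 33 were at or above 5 on every array, and Atf3 and Stc2, which were not, are marked as such below. Every rise in Q20 and Q91, and those in Q111 other than that of Cebpb, came from Atf3 and Stc2. Both passed the filter only through arrays of the lines in which they were high, so these rises are not support. A call here means an adjusted p under 0.05 in a limma fit over all probe sets.

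**Figure D1:**
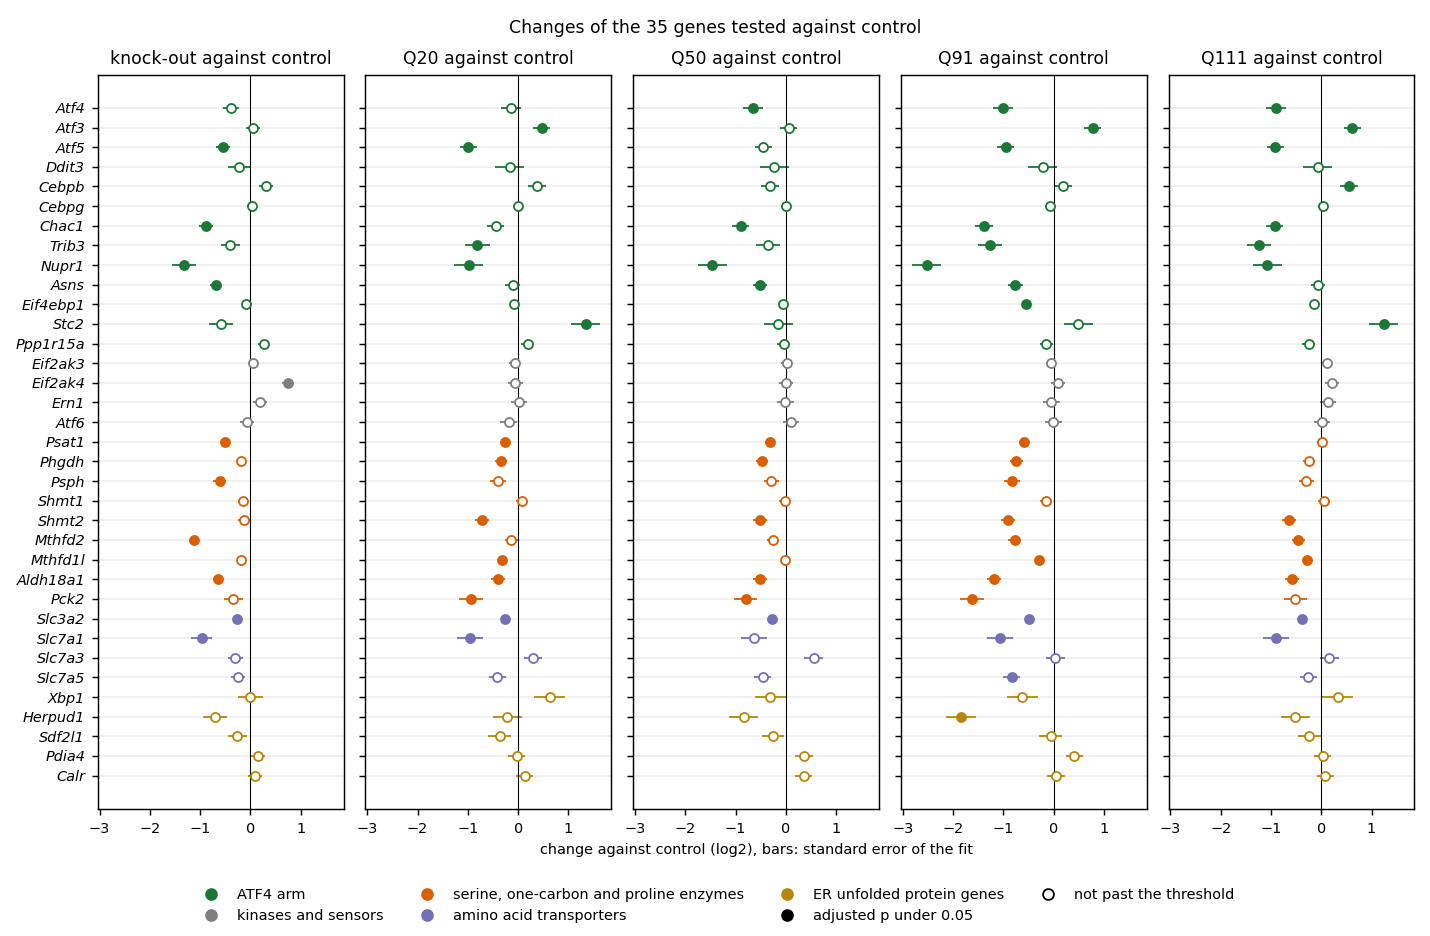
Change against control in log2 (x axis) of the 35 genes tested, with the standard error of the limma fit as bars, in the knock-out and the 4 knock-in lines. Filled points passed the threshold, and colours give the role. Filled points lie mostly to the left of 0 among the ATF4 arm, the enzymes and the transporters, with 19 of them in Q91.

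The counts rest unequally on single arrays. The 11 calls of the knock-out held whichever array was left out, as did 19 of the 20 calls of Q91. Only 5 of the 13 calls of Q20 and 2 of the 10 of Q50 did so, and the count of Q20 was 6 without its replicate 1 or without its replicate 2. The count of Q50 was 3 without its replicate 2, between 5 and 6 without control replicate 1, 2, 3, 5 or 6, and 7 without its replicate 3. In a fit of only the control and Q50 arrays it was 1. With 1 array left out at a time, the Q20 calls that held throughout were those of Atf5, Stc2, Shmt2, Mthfd1l and Slc7a1, and the Q50 calls those of Chac1 and Nupr1. Stc2 passed the filter only through arrays of Q20 and Q111 in which it was high, and the filter was not repeated in these fits. The stability of its call is therefore no support. In Q20, leaving out its replicate 1 or its replicate 2 ended the calls of Atf3, Trib3, Nupr1, Slc3a2, Psat1 and Aldh18a1, replicate 1 also that of Pck2, replicate 2 also that of Phgdh, and replicate 3 those of Slc3a2, Psat1, Phgdh and Aldh18a1. In Q50, leaving out its replicate 2 or its replicate 3 ended the calls of Atf4, Asns, Psat1, Shmt2 and Slc3a2, replicate 2 also those of Aldh18a1 and Pck2, and replicate 3 also that of Phgdh. In Q91 the Mthfd1l call was lost without replicate 2 or 3. In Q111 the Cebpb call was lost without any 1 of its replicates, Slc7a1 without replicate 1 or 2, Mthfd1l without replicate 2, and Atf3 and Mthfd2 without replicate 3. Leaving out single control arrays also ended some of these calls in Q20 and Q50, and that of Cebpb in Q111. With replicates 1 to 3 or 4 to 6 alone of control and knock-out, the knock-out count was 7 or 5.

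Markers of cell state moved with some of the groups. The summed level of 5 primed epiblast markers (Fgf5, Pou3f1, Krt18, Zic2 and Dnmt3b) ran from 11.89 to 12.41 in log2 in the control and from 10.49 to 11.25 in the knock-out. Its lowest and highest values were 13.77 and 14.33 for Q20, 12.62 and 13.79 for Q50, 14.10 and 15.04 for Q91, and 14.13 and 14.35 for Q111. That sum was thus below every control array in the knock-out and above every control array in the lines. It gives most weight to the genes of highest level, in control and knock-out mainly Dnmt3b (means 11.96 and 10.78). Fgf5 had means of 2.08 and 2.07 there. The summed level of 8 feeder fibroblast markers was 6.41 to 7.46 in the control and 5.94 to 6.32 in the knock-out. For the lines it spanned 7.25 to 9.19 (Q20), 6.26 to 6.54 (Q50), 6.85 to 8.98 (Q91) and 8.33 to 9.29 (Q111), with between 0 and 3 of the 8 markers at a group mean of 5 or more. The marker of highest mean was Thy1 in the control and Col1a1 in Q20, Q91 and Q111, so the feeder sum follows different genes. The part of either in the changes below was not tested, and in bulk RNA a smaller share of cells and less RNA per cell cannot be told apart.

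Within the ATF4 arm, Atf4 itself was lower in Q50, Q91 and Q111. Its log2 expression was 12.28 at the lowest, 12.44 at the median and 12.89 at the highest of the controls, and 11.82, 12.06 and 12.58 in the knock-out. The 3 arrays read 12.18, 12.73 and 12.14 in Q20, 12.07, 11.77 and 11.69 in Q50, 11.28, 11.51 and 11.68 in Q91, and 11.81, 11.93 and 11.03 in Q111. All arrays of Q50, Q91 and Q111 lay below all controls, whereas Q20 and the knock-out overlapped the controls. The level in Q91 was 49.9% of the control's (adjusted p = 8.56e-04), and the changes were -0.90 ± 0.19 (SE) in Q111 and -0.65 ± 0.19 in Q50 (adjusted p = 0.0432). The Q50 call was lost in 6 of the 9 fits with 1 array left out. In the knock-out it was -0.39 ± 0.16 (adjusted p = 0.104). A second Atf4 probe set gave -0.58 in the knock-out, past the threshold (adjusted p = 9.59e-04), so the call for Atf4 in the knock-out depends on the probe set. ATF4 is controlled largely at translation, which these arrays do not measure.

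Atf5, a related factor whose translation is controlled in the same way, fell in the knock-out and in 3 lines. The controls ran from 7.54 to 8.0 with a median of 7.76, and the knock-outs from 6.82 to 7.45 with a median of 7.19. Its arrays read 6.69, 6.85 and 6.74 in Q20, while Q91 gave 6.70, 6.87 and 6.86 and Q111 gave 6.71, 6.93 and 6.89. Every one of these arrays was below every control, by -0.55 on average in the knock-out, -0.99 in Q20, -0.95 in Q91 and -0.91 in Q111. In Q50 replicates 1 and 3 were near the controls at 7.55 and 7.70 and replicate 2 was at 6.68, and the change of -0.45 did not pass (adjusted p = 0.106).

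Chac1, which degrades glutathione and is a sensitive ATF4 target, showed a tight separation. Its 6 controls lay between 8.06 and 8.32 with a median of 8.22, and the 6 knock-outs between 7.08 and 7.43 with a median of 7.36. The lines read 7.70, 7.53 and 8.02 in Q20, 7.89, 7.28 and 6.73 in Q50, 6.97, 6.58 and 6.90 in Q91, and 7.37, 7.42 and 7.03 in Q111. All 18 arrays that were not controls lay below the lowest control. The change was -0.88 ± 0.14 in the knock-out (adjusted p = 3.89e-04), -0.90 in Q50, -1.38 ± 0.17 in Q91 (adjusted p = 1.25e-05) and -0.93 in Q111, and in Q20 -0.45 (adjusted p = 0.061).

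Nupr1, a small stress-induced chromatin protein, had the largest decrease in the list in the knock-out, Q50 and Q91. Controls ran from 7.94 to 8.62 with a median of 8.40, and knock-outs from 6.65 to 7.73 with a median of 6.96. The arrays were at 6.87, 7.02 and 8.19 in Q20, 7.62, 6.63 and 6.40 in Q50, 5.57, 5.65 and 6.23 in Q91, and 7.31, 7.43 and 7.08 in Q111. Only replicate 3 of Q20 overlapped the controls. The change was -1.33 ± 0.23 in the knock-out (39.9% of the control level), -0.99 in Q20, -1.46 in Q50, -2.53 ± 0.29 in Q91 (17.3% of the control level, adjusted p = 4.39e-06) and -1.07 in Q111. A second Nupr1 probe set passed in all 5 comparisons, with a smaller change of -1.27 in Q91.

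Trib3, a pseudokinase that restrains ATF4, fell in Q20, Q91 and Q111 by 0.81, 1.27 and 1.23 in log2. Its controls lay between 7.67 and 8.11. Q20 gave 6.99, 6.99 and 7.27, Q91 gave 6.53, 5.97 and 7.37, and Q111 gave 6.75, 6.83 and 6.41, all below the controls. The knock-outs, from 6.98 to 7.84, overlapped them, and the change of -0.40 did not pass (adjusted p = 0.183). The Q20 call was lost without replicate 1 or replicate 2 of that line.

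Asns, which makes asparagine, fell in the knock-out, Q50 and Q91. Controls lay between 12.91 and 13.21 and knock-outs between 12.21 and 12.49, a change of -0.68 ± 0.12 (adjusted p = 6.23e-04). Q50 read 12.70, 12.29 and 12.55 and Q91 read 12.47, 12.46 and 11.89, for changes of -0.52 and -0.76. The Q50 call was lost in 4 of the 9 fits with 1 array left out. Q20 (13.09, 13.02 and 12.66) and Q111 (12.77, 12.89 and 13.27) overlapped the controls, with changes of -0.11 and -0.06, although a second Asns probe set passed in Q20, at -0.35 (adjusted p = 0.0481).

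The remaining genes of the ATF4 arm moved in both directions or did not pass. Atf3, a stress-induced repressor, rose in Q20, Q91 and Q111 by 0.47, 0.77 and 0.62, but from a control mean of 4.76, below the level of 5 that the filter asks for, and the Q20 call was lost in 8 of the 9 fits with 1 array left out. Stc2, a secreted glycoprotein, rose in Q20 and Q111 by 1.34 and 1.24 from a control mean of 3.91. Its controls ran from 3.16 to 4.35 and its knock-outs from 2.90 to 3.83, against 5.29, 4.70 and 5.78 in Q20, 3.89, 4.0 and 3.41 in Q50, 4.94, 4.47 and 3.81 in Q91 and 5.43, 4.75 and 5.29 in Q111. Both entered the test only through arrays of the lines in which they were high. Cebpb rose in Q111 by 0.56 (adjusted p = 0.0262), and this call was lost when any 1 of the Q111 arrays was left out, and under quantile normalization or median centring, and its second probe set gave 0.20 (adjusted p = 0.574). Eif4ebp1, an inhibitor of cap-dependent translation, fell in Q91 by 0.55, with arrays at 12.98, 12.97 and 13.06 against controls of 13.51 to 13.59, and its second probe set gave -0.62. Cebpg, Ddit3 (CHOP) and Ppp1r15a (GADD34, which dephosphorylates eIF2) passed in no comparison with the control. Ddit3 ran from 6.55 to 7.98 in the control (median 7.13) and from 6.53 to 7.55 in the knock-out (median 6.97), and all 12 arrays of the lines, from 6.6 to 7.50, were inside the control range. Vldlr did not pass the filter, with group means of 4.37 to 4.76.

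**Figure D2:**
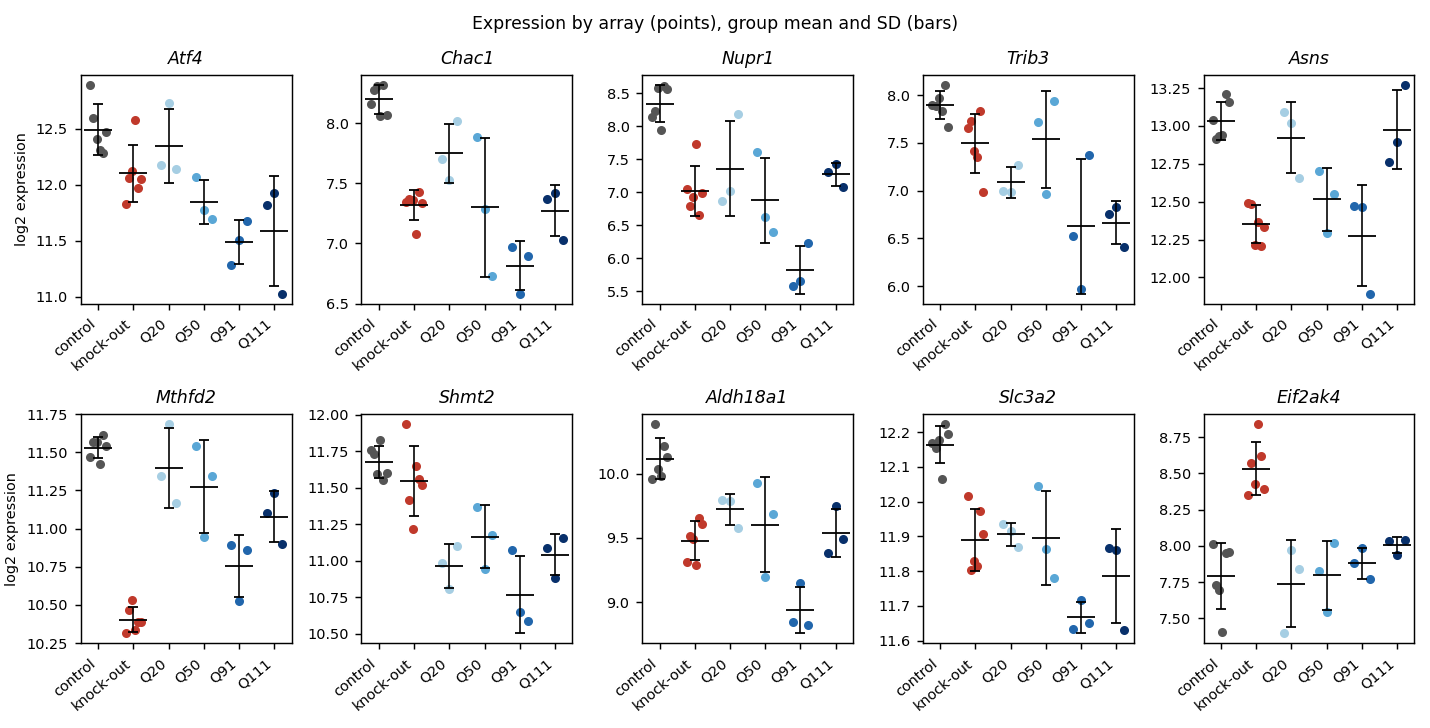
Log2 expression of 10 genes on each array (points), with the mean and SD of each group (bars), for 6 control, 6 knock-out and 3 arrays of each knock-in line. All Chac1 values outside the control lie below the control range of 8.06 to 8.32, Mthfd2 is lowest in the knock-out and Eif2ak4 is high in the knock-out alone, between 8.35 and 8.84.

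Among the kinases and sensors, 1 of 4 passed in any comparison. Eif2ak4, the amino acid sensing kinase GCN2, rose in the knock-out, as did 7.42% of all probe sets. Its 6 knock-out arrays lay between 8.35 and 8.84 with a median of 8.50, and the controls between 7.40 and 8.01 with a median of 7.84. The lines read 7.40, 7.97 and 7.84 in Q20, 7.82, 7.54 and 8.02 in Q50, 7.88, 7.99 and 7.77 in Q91, and 8.03, 7.94 and 8.04 in Q111. Every knock-out array was thus above each of the other 18 arrays. The change was 0.74 ± 0.12 (167% of the control level, limma adjusted p = 3.88e-04). An exact two-sided permutation test over the 12 arrays gave p = 0.00216, the smallest it can give. Any gene whose knock-out arrays all lie beyond the controls gets this value, so it adds nothing to that separation. It is not adjusted for the 210 exact tests made. Eif2ak3 (PERK), Ern1 (IRE1) and Atf6 changed by between -0.19 and 0.19 without passing. A second Ern1 probe set, of lower level, gave 1.13 in Q20 and 1.11 in Q111, both past the threshold, so for Ern1 the probe sets disagree.

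Among the enzymes of serine, one-carbon and proline metabolism, those that passed were all lower than in the control. Of 9 tested, 4 fell in the knock-out (7.17% of all probe sets), 6 in Q20 (9%), 5 in Q50 (2.3%), 8 in Q91 (9.49%) and 4 in Q111 (9.49%), and none rose. The median change was -0.34, -0.34, -0.31, -0.77 and -0.30 in the same order. Pycr1 had no single-gene probe set.

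Mthfd2, the mitochondrial folate dehydrogenase that is high in proliferating and embryonic cells, fell most clearly in the knock-out. Controls lay between 11.42 and 11.61 with a median of 11.55, and knock-outs between 10.32 and 10.53 with a median of 10.39. The lines read 11.34, 11.68 and 11.17 in Q20, 11.54, 10.94 and 11.34 in Q50, 10.89, 10.52 and 10.86 in Q91, and 11.10, 11.23 and 10.90 in Q111. Knock-out and control did not overlap, and all arrays of Q91 and Q111 lay below all controls. The change was -1.13 ± 0.10 in the knock-out (45.8% of the control level, adjusted p = 5.82e-07), -0.77 in Q91 and -0.45 in Q111, and a second probe set gave -1.05 in the knock-out.

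Shmt2, the mitochondrial serine hydroxymethyltransferase that acts in the same route, had another pattern. It fell in all 4 lines, by 0.72 in Q20, 0.51 in Q50, 0.91 in Q91 and 0.64 in Q111. Controls ran from 11.55 to 11.83. The lines read 10.99, 10.80 and 11.10 in Q20, 11.37, 10.94 and 11.18 in Q50, 11.07, 10.65 and 10.59 in Q91, and 11.09, 10.88 and 11.15 in Q111, all below the lowest control. Knock-out arrays ranged from 11.22 to 11.94 around the controls, with a change of -0.13 (adjusted p = 0.501). Mthfd1l, the next mitochondrial folate enzyme, fell by 0.33 in Q20, 0.28 in Q91 and 0.29 in Q111. Shmt1, the cytosolic counterpart of Shmt2, passed in none by the probe set used, although each of the 6 knock-out arrays was lower than every control (change -0.16, adjusted p = 0.298). Its 3 further probe sets disagreed, with 2 of them passing in Q20 at 0.54 and 0.46 and another in Q91 at -0.46.

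The 3 enzymes that make serine from a glycolytic intermediate are Phgdh, Psat1 and Psph. Psat1 fell in the knock-out by 0.51, with arrays between 12.80 and 12.94 against controls of 13.32 to 13.47, and by 0.59 in Q91. Its Q91 arrays read 13.01, 12.54 and 12.83. It also fell in Q20 and Q50 by 0.26 and 0.31, calls lost in 7 and 8 of the 9 fits with 1 array left out and not shared by its second probe set, and the change in Q111 was 0.01. Phgdh fell in Q20, Q50 and Q91 by 0.34, 0.47 and 0.74, while the knock-out change of -0.19 did not pass (adjusted p = 0.231). The Q20 call of Phgdh was lost in 7 of those 9 fits and the Q50 call in 1. In Q111 the Phgdh probe set used gave -0.24 (adjusted p = 0.156), but 2 of 3 further probe sets passed, with changes of -1.19 and -0.39. Psph fell in the knock-out by 0.61, with arrays from 10.18 to 10.37 against controls from 10.78 to 10.95, and in Q91 by 0.83.

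Aldh18a1, which starts proline synthesis from glutamate, fell in the knock-out and, by the probe set used, in each line. Its controls lay between 9.96 and 10.38 and its knock-outs between 9.29 and 9.66. The arrays read 9.79, 9.79 and 9.58 in Q20, 9.93, 9.20 and 9.69 in Q50, 8.85, 9.15 and 8.83 in Q91, and 9.38, 9.75 and 9.49 in Q111. No array outside the control reached the lowest control, and Q91 was lowest. The changes were -0.64, -0.40, -0.51, -1.18 and -0.58, of which the Q20 call was lost in 7 of 9 fits with an array left out and the Q50 call in 2 of 9. None of the 4 other Aldh18a1 probe sets tested passed in Q50, with changes of -0.35 to -0.37.

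Pck2, the mitochondrial phosphoenolpyruvate carboxykinase and an ATF4 target, fell in Q20, Q50 and Q91 by 0.93, 0.80 and 1.62. Q91 read 7.94, 7.2 and 7.80 against controls of 8.95 to 9.47, 32.4% of the control level. Q50 was uneven, at 8.71, 7.67 and 9.03, with replicate 3 among the controls, and that call was lost in 6 of the 9 fits with 1 array left out. Knock-out arrays lay between 8.72 and 9.13 and overlapped the controls (change -0.34, adjusted p = 0.256).

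Of the transporters, Slc3a2 and Slc7a1 carried the decreases. Slc3a2 (CD98), the shared heavy chain of several amino acid exchangers, changed little in size but evenly. Controls lay between 12.07 and 12.22 and knock-outs between 11.80 and 12.02. The lines read 11.93, 11.92 and 11.87 in Q20, 12.05, 11.86 and 11.78 in Q50, 11.63, 11.72 and 11.65 in Q91, and 11.87, 11.86 and 11.63 in Q111. Each of these arrays was below every control, with changes of -0.27, -0.26, -0.27, -0.50 and -0.38, all past the threshold. The Q50 call was lost in 7 of the 9 fits with 1 array left out and the Q20 call in 3.

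Slc7a1, the cationic amino acid transporter CAT1, fell in the knock-out by 0.97, in Q20 by 0.95, in Q91 by 1.07 and in Q111 by 0.90. The lowest control was at 9.43 and their median at 9.71, and knock-outs lay between 8.44 and 9.26. In Q50 its arrays were spread, at 9.13, 8.31 and 9.80, and the change of -0.64 did not pass (adjusted p = 0.128). A second Slc7a1 probe set fell in Q20, Q91 and Q111 but gave -0.42 in the knock-out, not past the threshold (adjusted p = 0.334). Slc7a5 (LAT1), the light chain partner of Slc3a2, fell in Q91 by 0.84, where arrays of 11.08, 11.33 and 11.11 lay below all controls, and passed in no other group. Slc7a3 passed in no comparison with the control. Slc7a11, the cystine exchanger, did not pass the filter, with group means of 3.07 to 3.23.

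**Figure D3:**
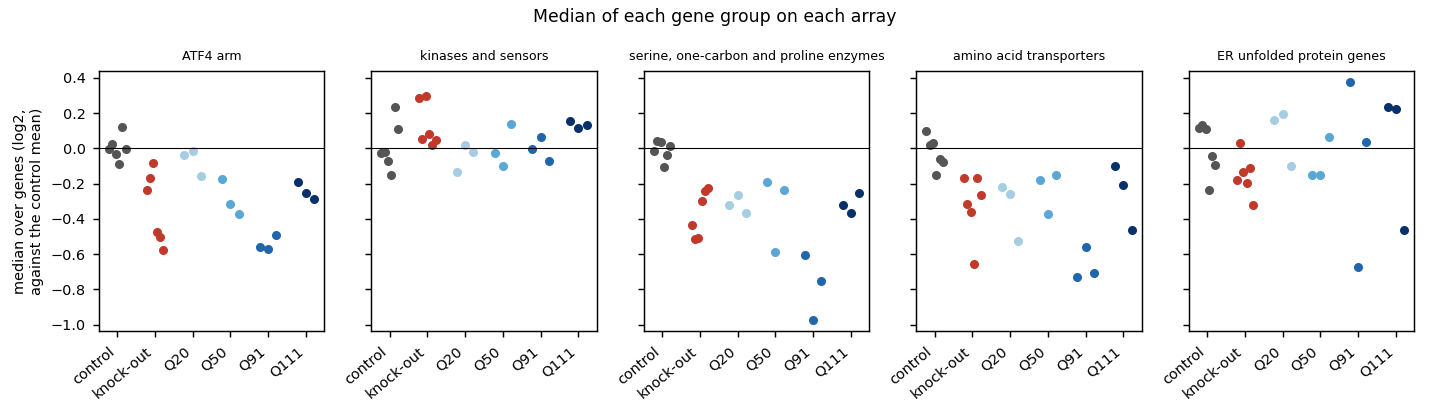
Median over the genes of each role, on each array, of the log2 value minus the control mean. The enzymes lie between -0.22 and -0.52 in the knock-out and between -0.61 and -0.97 in Q91, below all 6 controls, while the ER genes spread from -0.67 to 0.37 in Q91, to both sides of the controls.

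The ER genes did not move together. Of 5 tested, none passed in the knock-out, Q20, Q50 or Q111, where 14.6%, 25.2%, 8% and 25.7% of all probe sets passed. In Q91, where 9.49% of all probe sets fell, 1 of the 5 fell. That gene was Herpud1, a component of ER-associated degradation whose promoter window holds both an amino acid response core and an ER stress element. It read 7.10, 6.21 and 6.41 in Q91 against 8.12 to 8.56 in the controls, a change of -1.84 ± 0.29 (27.9% of the control level, adjusted p = 1.52e-04). In the knock-out all 6 arrays, from 7.58 to 7.99, lay below the controls, and the change of -0.70 was at an adjusted p of 0.0526. It passed there once arrays were quantile-normalized or centred on their median (adjusted p = 0.0426 and 0.0421). Xbp1, Sdf2l1, Pdia4 and Calr, a transcription factor and 3 proteins of the ER lumen, passed in no comparison with the control by the probe set used. A second Xbp1 probe set passed in Q20, at 0.84 (adjusted p = 0.0287).

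The knock-out was then set against the mean of the 4 lines, a difference that uses no control array. The controls still enter its standard errors and p-values, since all 24 arrays share 1 estimate of the spread. Here 6 genes were higher and 6 lower, while 20.1% of all probe sets were higher and 26.6% lower (median difference 0.04, against -0.03 over all genes). Eif2ak4 was higher in the knock-out by 0.68 ± 0.10 (adjusted p = 1.88e-05), with all 6 arrays above all 12 arrays of the lines. Shmt2 and Pck2 were higher by 0.57 and 0.63, and Trib3, Ppp1r15a and Phgdh by 0.52, 0.32 and 0.26.

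Mthfd2 was lower in the knock-out than in the lines by 0.72 ± 0.09 (change -0.72, adjusted p = 1.45e-06). Within mitochondrial one-carbon metabolism, then, Mthfd2 was lower and Shmt2 higher in the knock-out than in the lines. Slc7a3 (-0.56), Asns (-0.32) and Psat1 (-0.23) were also lower. The other 2 of the 6 lower genes, Stc2 (-1.32) and Atf3 (-0.44), had knock-out means of 3.33 and 4.80 and passed the filter only through arrays of the lines, so their difference is given as a value and not as support. Second probe sets passed where the one used did not for Ern1 (-0.55), Shmt1 (-0.41) and Slc7a1 (0.79). For Chac1, Nupr1, Aldh18a1 and Slc3a2 the differences were 0.04 ± 0.12, 0.19 ± 0.20, 0.03 ± 0.10 and 0.08 ± 0.06, none past the threshold, which does not show that the levels are equal. The Trib3 call was lost without knock-out replicate 5.

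**Figure D4:**
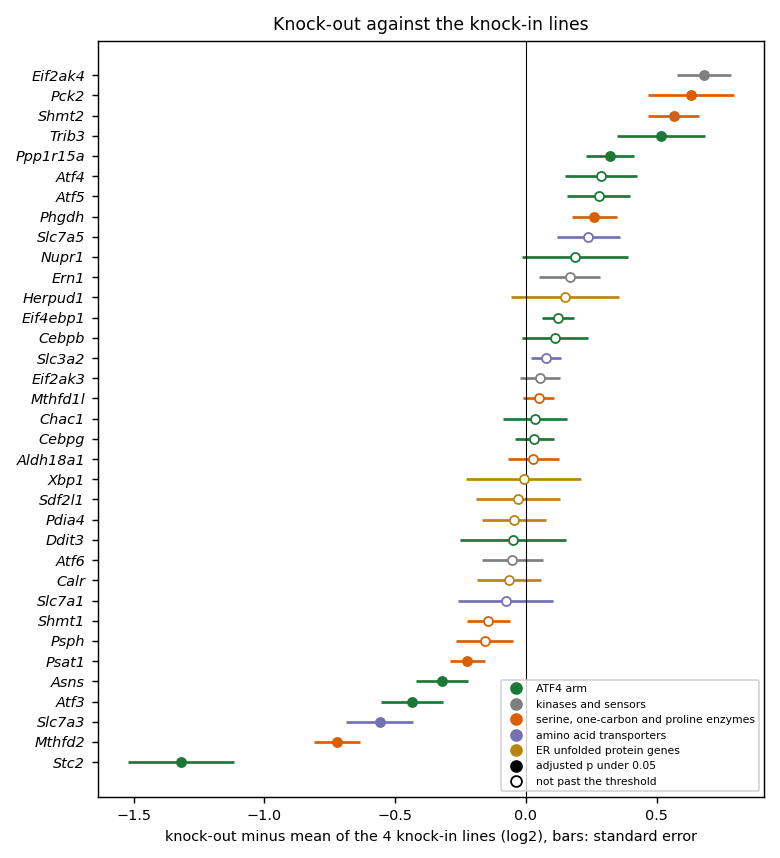
Knock-out minus the mean of the 4 knock-in lines in log2 (x axis), with standard errors, for the 35 genes tested, ordered by the difference. Eif2ak4 at 0.68 and Mthfd2 at -0.72 are among the filled points, which passed the threshold.

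No listed gene passed a test on the repeat number itself. The slope of expression on the repeat number over the 12 knock-in arrays passed for 0 of 35 genes, where 0.0111% of probe sets had a rising and 0.0334% a falling slope past the threshold. At an unadjusted p under 0.05, limma gave 3 of the 35 for the slope: Atf4, Ppp1r15a and Mthfd2. Some of 35 tests reach that level by chance alone, and the share of all probe sets at it is not given here. The count is therefore no support for a slope. Nor did any of the 35 pass an F-test for differences among the lines, which 0.167% of probe sets passed. Atf4 had the steepest slope in the list, -0.81 ± 0.25 per 100 repeats (adjusted p = 0.844), and line means were widest apart for Herpud1, by 1.63, and Nupr1, by 1.54, in both cases between Q91 and Q20 (F-test adjusted p = 0.265 and 0.188). Replacing the slope by Q91 and Q111 against Q20 and Q50 gave limma calls for Mthfd2 (-0.42, adjusted p = 0.0341) and Eif4ebp1 (-0.27, adjusted p = 0.0456). The share of all probe sets called in that comparison is not given here, so these calls are not read as a result about the list. Line and repeat number cannot be told apart, since each number is carried by 1 line. Q91 was lowest among the lines for Atf4, Chac1, Nupr1, Asns, Aldh18a1, Pck2, Slc3a2 and Herpud1, though none of these passed the F-test.

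Control and knock-out each have replicates 1 to 3 and 4 to 6. With these sets matched by number, the knock-out change of some genes differed between them. The test of that difference was chosen after the data were seen, and passed for 4 of 35 genes, where 7.8% of probe sets passed. This count is near that share and is not read as a result about the list. Xbp1 was higher in the knock-out by 0.61 in replicates 1 to 3 and lower in replicates 4 to 6 (change -0.61), with a difference of -1.22 ± 0.17 (adjusted p = 0.00195). Its controls read 10.94, 10.95 and 10.83 in the first set and 11.73, 11.42 and 11.27 in the second, and its knock-outs 11.60, 11.47 and 11.46 and then 10.95, 10.80 and 10.84. The sets did not overlap in either group, and they moved in opposite directions.

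Ddit3 went from 0.59 to -1.03 and Calr from -0.26 to 0.44 between the sets, and Pck2 from -0.65 to -0.02. For Ddit3, Calr and Xbp1, therefore, the absence of a call in the knock-out is a mean over changes that differ in sign when sets are matched by number. Mthfd2 did not show this, at -1.10 in replicates 1 to 3 and -1.16 in replicates 4 to 6. The sources used here do not state what distinguishes the sets. The mean of Xbp1 was 10.90 in control replicates 1 to 3 and 10.86 in knock-out replicates 4 to 6. It was 11.47 in control replicates 4 to 6 and 11.51 in knock-out replicates 1 to 3. Over all probe sets tested, control arrays of 1 set also deviated together with knock-out arrays of the other (correlation r from 0.15 to 0.50). Whether equal numbers mark the same set in both groups was not tested.

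**Figure D5:**
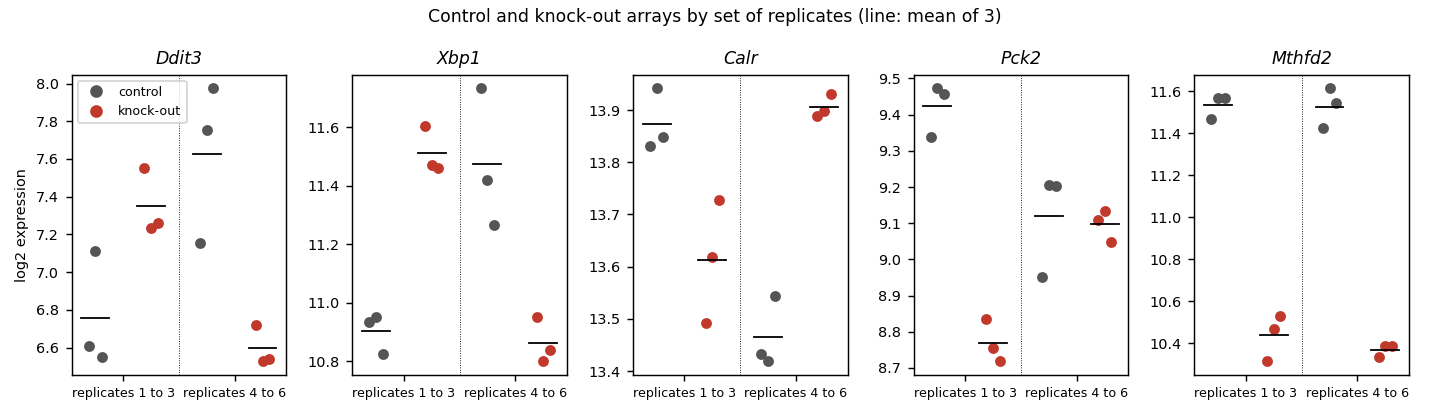
Log2 expression of 5 genes on the control and knock-out arrays, split into replicates 1 to 3 and 4 to 6, with the mean of each 3 as a line. Knock-out is above control in the first set and below it in the second for Ddit3 and Xbp1, and below it in both for Mthfd2.

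Other genes of these pathways, listed separately and read in the same fit, gave a mixed picture. Of 29 further amino acid response genes, mainly aminoacyl-tRNA synthetases, 11 fell and 1 rose in the knock-out, where 7.17% and 7.42% of all probe sets did. In Q20 9 fell and 3 rose (9% and 16.2%), in Q50 3 and 2 (2.3% and 5.7%), in Q91 10 and 3 (9.49% and 12.7%) and in Q111 6 and 3 (9.49% and 16.2%). In the knock-out the genes that fell included the synthetases Mars1 (-0.43), Cars (-0.63) and Nars (-0.43). Gpt2, a mitochondrial alanine aminotransferase, fell to 67.6% of the control level in the knock-out, 31.1% in Q91 and 50% in Q111. Against this direction, Tars, the threonyl-tRNA synthetase, rose by 0.91 in Q20, 0.94 in Q50, 0.68 in Q91 and 0.91 in Q111.

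Among 14 genes of the eIF2 machinery, 2 fell in the knock-out (7.17% of all probe sets), Eif2b3 (-0.55) and Eif2b5 (-0.29), both subunits of the exchange factor eIF2B. In each line 1 rose (7.14%), against 16.2% of all probe sets in Q20, 5.7% in Q50, 12.7% in Q91 and 16.2% in Q111. In Q20, Q91 and Q111 1 fell (7.14%), against 9%, 9.49% and 9.49% of all probe sets. The gene that rose is Impact and the gene that fell is Ppp1r15b. Impact, an inhibitor of GCN2 and an imprinted gene, rose in every line, by 1.34 in Q20, 0.89 in Q50, 1.02 in Q91 and 1.45 in Q111. It was lower in the knock-out than in the lines (change -1.60 ± 0.14, limma adjusted p = 2.54e-08), where Eif2ak4 was higher. Against the control, however, Impact passed in the lines and not in the knock-out, and Eif2ak4 in the knock-out and in no line. Ppp1r15b, a constitutive partner of the eIF2 phosphatase, fell in Q20, Q91 and Q111, to 49.9%, 60.5% and 54.2% of the control level.

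A list of 27 ER chaperones and other unfolded protein genes rose in part in the lines, where the ER genes above did not. It had 17 genes higher and none lower in Q20 (16.2% and 9% of all probe sets), 4 and 0 in Q50 (5.7% and 2.3%), 9 and 1 in Q91 (12.7% and 9.49%) and 15 and 0 in Q111 (16.2% and 9.49%). In the knock-out 4 were higher and 3 lower (7.42% and 7.17%). Edem1, a lectin of ER-associated degradation, rose by 0.75 in Q20, 0.55 in Q91 and 1.02 in Q111, and Derl2, a membrane protein of the same route, by 1.04, 0.43 and 0.92. In the knock-out both fell, by 0.39 and 0.42. Centring each array on its median lowered the number of genes that rose to 12 in Q20, 1 in Q50, 7 in Q91 and 12 in Q111. The share of all tested probe sets that rose after centring is not given here. Whether these lower counts stand out from all probe sets is therefore not shown. The share of rises among all called probe sets fell with it, from 64.4% to 43.8% in Q20 and 71.2% to 48.2% in Q50. It went from 57.2% to 43.3% in Q91 and from 63% to 41% in Q111.

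Of 12 further amino acid transporters, 3 fell in the knock-out and none rose (7.17% and 7.42% of all probe sets), led by Slc1a4 (-1.64 ± 0.20, adjusted p = 3.00e-05), a neutral amino acid transporter. In Q20 3 were higher and none lower (16.2% and 9% of all probe sets), and in Q50 2 and 0 (5.7% and 2.3%). The counts were 3 and 1 in Q91 (12.7% and 9.49%), and 5 and 1 in Q111 (16.2% and 9.49%). Slc38a2 (SNAT2) and Slc38a4 rose, by 0.73 and 0.71 in Q20, 0.53 and 0.85 in Q50, 0.56 and 0.98 in Q91, and 0.48 and 0.71 in Q111. Of 12 further serine, folate and proline enzymes, 2 fell in the knock-out and none rose (7.17% and 7.42% of all probe sets). Those that fell were Slc25a32 (-0.34), the mitochondrial folate carrier, and Gldc (-0.52), the glycine decarboxylase. In Q20 2 were higher and 1 lower (16.2% and 9% of all probe sets), and in Q50 2 and 0 (5.7% and 2.3%). The counts were 4 and 1 in Q91 (12.7% and 9.49%), and 2 and 2 in Q111 (16.2% and 9.49%). Gldc was higher by 0.56 in Q20, 0.52 in Q91 and 0.92 in Q111.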

How the data were processed

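Total RNA of 24 samples was hybridised to 1-colour arrays, 1 sample each. The authors made the deposited log2 values (45101 probe sets) with GCRMA, per the submitters' processing notes. This method in general adjusts background by probe sequence, quantile-normalizes and summarises the probes of a set. Its version, and whether all arrays were processed in 1 run, are not stated in the sources used here. Groups follow titles and genotypes. After removal of 64 AFFX controls, the 17980 probe sets at 5 or more on at least 3 arrays entered 1 two-sided limma fit (limma 3.58.1 in R 4.3.3). Group means were the coefficients, leaving 18 residual degrees of freedom, with Benjamini-Hochberg adjustment over all of them and a threshold of 0.05. The slope and F-test used the 12 knock-in arrays. The script was first tested on simulated data.

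In GEO's platform annotation 34945 probe sets had 1 gene symbol and 932 had several. All listed genes were described, and of each further pathway list the 3 with the smallest p in a comparison could be named. Of the further genes, 99 were matched by symbol, 5 by Entrez ID and 9 not at all. The members and lists were chosen with earlier results of these data known. Alternatives were quantile normalization, median centring, other filters, the mean of all probe sets of a gene, a replicate block, a variance trend, fits of only the groups compared, subsets of replicates and leaving out each array. The number of arrays limits the precision. Levels of different probe sets were not compared.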

Additional observations from a re-analysis of the deposited data

Results flagged for a closer look

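In 70 groups of 6 arrays, 6 had an array whose gap to the nearest other exceeded 0.625 of the group's range, and chance gives about 1 in 20. In the knock-out, replicate 4 was low for Chac1 (7.08) and Slc7a3 (10.37) and high for Nupr1 (7.73), replicate 3 was high for Eif4ebp1 (13.61) and replicate 5 was high for Ppp1r15a (8.72). In the control, replicate 2 was high for Ppp1r15a (8.40). The Chac1, Nupr1 and Slc7a3 values lie on the same array.

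The knock-out change in replicates 4 to 6 minus that in replicates 1 to 3 passed the test of the difference itself for Ddit3 (-1.62), Xbp1 (-1.22), Calr (0.70) and Pck2 (0.63). For Ddit3, Xbp1 and Calr the sign of the change differed between the sets when these were matched by replicate number. With the control of 1 set beside the knock-out of the other, the sign did not differ for Ddit3 and Calr.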

How the results depend on the processing

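No call of a listed gene changed direction under any alternative, and 37 of the 80 calls held under all of them, with 57 holding whichever array was left out. With replicates 1 to 3 alone of control and knock-out, the number of listed genes called was 7 in the knock-out, 6 in Q20, 2 in Q50 and 5 for the knock-out against the lines. With replicates 4 to 6 alone it was 5, 3, 0 and 7, and 8 in Q111, where limma gave 15 genes of Q50 at an unadjusted p under 0.05. The share of all probe sets at that unadjusted level is not given here. These fits have fewer arrays. For Q50 the count was 10 in the full fit, 3 with the replicate block and 1 with only the groups compared. Leaving out 1 array at a time gave 11 to 12 (knock-out), 6 to 12 (Q20), 3 to 12 (Q50), 19 to 22 (Q91), 11 to 14 (Q111) and 11 to 13 (knock-out against the lines). Q91 and Q111 against Q20 and Q50 gave 2 calls where the slope gave 0, without a share of all probe sets beside them. The replicate block gave 12 calls in the knock-out, 9 in Q20, 19 in Q91, 12 in Q111, 12 for the knock-out against the lines and 0 for the slope. Between control and knock-out, samples of the same replicate number deviated from their group means in opposite directions (r from -0.41 to -0.26). Control replicates 1 to 3 deviated together with knock-out replicates 4 to 6 (r from 0.18 to 0.50). Control replicates 4 to 6 did so with knock-out replicates 1 to 3 (0.15 to 0.40). Among the lines r ran from -0.28 to 0.39 for number 1, 0.15 to 0.46 for number 2 and -0.14 to 0.39 for number 3. As not every pair was above 0.1, samples of the same number were not taken as pairs. Leaving out replicate 3 of every line, chosen after seeing the data, gave 13 in the knock-out, 13 in Q20, 8 in Q50, 20 in Q91 and 14 in Q111. Median centring moved the median of all probe sets by -0.11 in Q20 and -0.12 in Q111, and the share of called probe sets that were higher from 64.4% to 43.8% (Q20), 71.2% to 48.2% (Q50), 57.2% to 43.3% (Q91), 63% to 41% (Q111) and 43% to 55% (knock-out against the lines). It removed 3 calls of listed genes. With replicates 1 to 3 or 4 to 6 alone, 4.66% or 5.83% of all probe sets were called in the knock-out, against 14.6%.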
